A study of Mus musculus with 3 samples.

Results

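The dorsal root ganglia (DRGs) of mice were compared between day 14 and day 7 after spared nerve injury (SNI), across every type of cell that the dissociated ganglion gave. The cells are the barcodes of the 7-day and the 14-day library in which 500 or more genes were detected and mitochondrially encoded genes took no more than 20% of the UMIs, where a UMI is one counted RNA molecule. They are 6510 of the 9662 cells of the series that pass this filter, 2682 from day 7 and 3828 from day 14. The other 3152 cells are from naïve mice and served as the uninjured level. Each library was made from 8 L3 and L4 ganglia of 2 wild-type male C57BL/6J mice at 13 weeks of age, the injured mice carried the injury on both sides, and no other treatment is given in the labels. With 1 library per time point there is no test between days and no p-value. All intervals are exact 95% intervals that cover counting error only, not the difference between mice, and a difference between days cannot be told apart from a difference between the pools of mice.

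A sensory ganglion holds the cell bodies of sensory neurons, each wrapped by satellite glial cells, together with the myelinating and non-myelinating Schwann cells of the axons, blood vessels, fibroblasts and resident macrophages. After a peripheral nerve is cut, axotomised neurons switch on a growth programme led by transcription factors such as Atf3, Sox11 and Jun, macrophages multiply or enter the ganglion, and Schwann cells distal to the cut turn into repair cells. In SNI, branches of the sciatic nerve are cut while one is spared, so injured and intact neurons lie in the same ganglion.

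Before filtering, the libraries held 22343246 UMIs in 3281 barcodes at day 7 and 36550911 UMIs in 4908 barcodes at day 14. The median cell that passed the filter had 4010.5 UMIs at day 7, 4199 at day 14 and 3072 in the naïve library. The days share 2 barcodes. Each cell was assigned to a class by the level of fixed marker genes, which put 5681 of the 6510 injured cells into neurons, glia, Schwann cells, vascular cells, fibroblasts or immune cells. Of these 5681 cells, 96.8% fell into the same class when whole clusters were named by the same markers. The classes are ranges of a score, and 446 cells, or 6.85%, lay within 0.1 of the cut. The median immune, vascular and fibroblast cell held 0 of the 8 neuron markers and 0 of the 6 satellite glia markers. The median neuron-gated cell held 5 of the 8 neuron markers at day 7 and 8 at day 14, together with 2 and 4 of the 6 satellite glia markers and 3 and 6 of the 11 Schwann cell markers. Satellite glia markers took a median of 0.120% of its UMIs at day 7 and 0.0328% at day 14. Of the neuron-gated cells, 10 of 199 at day 7 and 1 of 147 at day 14 lay near the cut.

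The make-up of the ganglion differed between the days mainly in neurons and fibroblasts. Neuron-gated cells were 7.42% of cells at day 7 (199 cells, interval 6.46 to 8.48%) and 3.84% at day 14 (147 cells, 3.25 to 4.50%), against 4.06% in the naïve library. The log2 ratio of the shares, day 14 over day 7, was -0.95 (-1.27 to -0.64). Fibroblast-gated cells went the other way, with 2.61% at day 7 (70 cells, 2.04 to 3.29%) and 4.57% at day 14 (175 cells, 3.93 to 5.28%), against 2.66% in the naïve library. The log2 ratio for fibroblasts was 0.81 (0.40 to 1.23), and it was above 0 under each of the alternatives run.

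Immune cells stood above the naïve level at both days. They were 3.46% of cells in the naïve library, 9.96% at day 7 and 9.30% at day 14, a log2 ratio between the days of -0.10 (-0.33 to 0.14). Macrophages, the phagocytes of the ganglion, made up most of them, with 2.13% of cells in the naïve library, 8.05% at day 7 and 6.79% at day 14. T and NK cells were 0.932% at day 7 and 1.20% at day 14, B cells were 0.224% and 0.549%, and neutrophils were 0.746% and 0.758%. For each of these 4 immune types the interval of the ratio between the days held 0 on the log2 scale. Under some alternatives it did not. For macrophages it lay below 0 without called doublets (-0.54 to -0.005) and with no cell filter (-0.52 to -0.06). For B cells it lay above 0 with cells thinned to 1500 UMIs (0.02 to 3.64) and with no cell filter (0.09 to 3.00).

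Schwann cells were the largest class in each library, with 40.3% at day 7 and 40.7% at day 14 (log2 ratio 0.01, -0.10 to 0.13). Vascular cells were 12.0% and 13.5% (0.16, -0.04 to 0.36). Satellite glia were 16.1% at day 7 and 14.6% at day 14 (-0.14, -0.32 to 0.05), both under the 22.6% of the naïve library. Their ratio depended on the setting. It was -0.29 (-0.49 to -0.09) with a stricter gate and -0.25 (-0.45 to -0.05) with cells thinned to 1500 UMIs. With no cell filter it was -0.17 (-0.32 to -0.01), but with clusters in place of the gate it was -0.01 (-0.18 to 0.17). The plot of cell shares by class sets the shares beside each other.

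**Figure D1:**
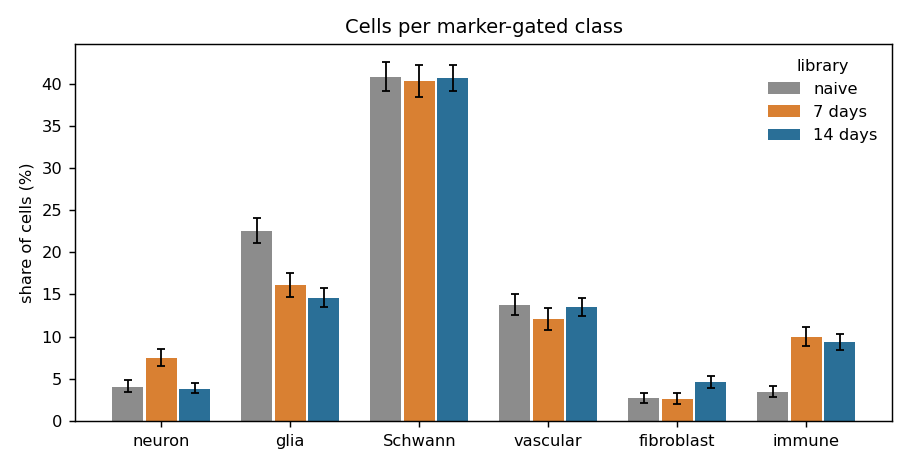
Share of cells (%) in each marker-gated class, for the naïve, 7-day and 14-day libraries. Bars start at 0, error bars are exact 95% intervals for counting error, and cells without a class are left out. The neuron bar is highest at day 7 (7.42%), the fibroblast bar is highest at day 14 (4.57%), and both injured libraries stand above the naïve library in immune cells.

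The excess of neurons at day 7 lay in cells of low depth. A DRG neuron is a large cell that usually gives many UMIs, and the median neuron-gated cell had 63909 UMIs in the naïve library and 78419 at day 14. At day 7 the median was 2290. Of the 199 neuron-gated cells at day 7, 142 (71.4%) had under 10000 UMIs, against 29 of 147 at day 14 and 21 of 128 in the naïve library. These 142 cells had a median of 1599.5 UMIs and of 12.3% mitochondrial UMIs, against 96714 UMIs and 8.69% in the deeper neurons of the same library.

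Counted with the deep cells alone, the order of the days was the opposite. Neurons with at least 10000 UMIs were 57 cells or 2.13% of the library at day 7 (1.61 to 2.74%) and 118 cells or 3.08% at day 14 (2.56 to 3.68%), against 3.39% in the naïve library. The log2 ratio of these shares was 0.54 (0.07 to 1.02). The direction of the neuron share therefore depends on whether shallow cells are counted. The part of the higher mitochondrial share in this difference was not tested. The shallow cells also bear on the summed levels of some genes. In all neuron-gated cells 2 of 9 evaluated myelin genes and 3 of 4 haemoglobin genes were 2-fold lower at day 14, and in neurons with at least 10000 UMIs none was. Haemoglobin genes summed to 87.3 CPM (UMIs scaled to a total of 1000000) at day 7 in all neuron-gated cells and to 38.6 CPM in the deep ones.

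**Figure D2:**
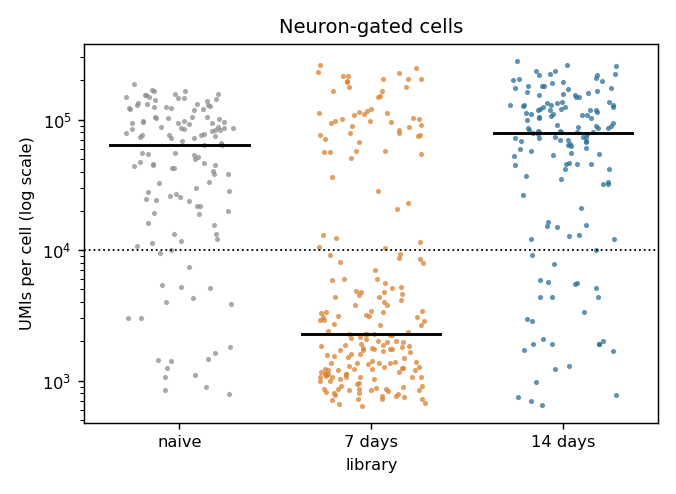
UMIs per neuron-gated cell (log scale) in the naïve, 7-day and 14-day libraries. Each point is 1 cell, the bar is the median and the dotted line marks 10000 UMIs. At day 7, 142 of 199 cells lie under the line, at day 14 it is 29 of 147.

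Over all cells summed, few genes passed a 2-fold rule between day 7 and day 14. A gene was evaluated with at least 50 UMIs over both injured libraries, and it was counted as higher or lower when its CPM, with 1 CPM added, differed by at least 2-fold and at least 10% of the cells had a UMI of it in the library where it was higher. A gene that met both conditions is said to have passed the fold. Neurons, fibroblasts and immune cells were each under 10% of cells. A gene read in only 1 of these classes could therefore not pass over all cells. With at least 10 UMIs and no minimum share of cells, 137 of 16736 genes differed by at least 2-fold. Of 14403 genes, 1 was higher at day 14 (0.00694%) and 2 were lower (0.0139%), and the median log2 ratio over all genes was 0.02. By the same rule with its minimum share of cells, 29 genes (0.201%) had been higher at day 7 than in the naïve library. None of these 29 was 2-fold lower or higher again at day 14, where their median log2 ratio to day 7 was -0.35, and 17 were still at least 2-fold over the naïve level. In a sum over all cells, fewer cells of a type and less RNA per cell cannot be told apart.

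Neurons held most UMIs of each of the 3 genes, with the smallest share for AC160336.1. Fxyd7, a regulatory subunit of the sodium pump, stood at 53.0, 66.0 and 140 CPM in the naïve, 7-day and 14-day library (log2 ratio of day 14 over day 7 1.08, 0.998 to 1.18), and neurons held 91.9% of its UMIs at day 14. Ly86 (MD-1), a partner of a Toll-like receptor homologue, stood at 281, 333 and 164 CPM (-1.02, -1.08 to -0.97), with 87.2% of its UMIs at day 7 in neurons. The unnamed gene AC160336.1 stood at 204, 280 and 129 CPM (-1.11, -1.17 to -1.06). Neurons held 58.8% of its UMIs at day 7 and 53.6% at day 14, and Schwann cells held 24.15% and 26.3%. In myelinating Schwann cells it had 241, 314 and 180 CPM (-0.80, -0.92 to -0.68), within the fold. With each cell weighing the same, none of the 3 passed the fold, at log2 ratios of 0.16 for Fxyd7, -0.97 for Ly86 and -0.83 for AC160336.1, and 4 other genes were lower. Under a stricter cell filter (1000 or more genes, no more than 10% mitochondrial UMIs) Ly86 was at -0.84, also under the fold. When neurons were left out, 1 of 13260 genes passed the fold (0.00754%).

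In neurons, 103 of 11677 genes were higher at day 14 (0.882%) and 18 were lower (0.154%). Of these 121 genes, 110 also passed in neurons with at least 10000 UMIs. Those deep cells held 6245557 of the 6572190 neuron UMIs at day 7 and 12564938 of 12663483 at day 14. The 2 sums are thus nearly the same data, and this overlap is no separate check. The 10% rule was harder to meet at day 7, where 142 of 199 neuron-gated cells were shallow, against 29 of 147 at day 14. The counts of higher and lower genes are thus not on equal terms. In neurons with at least 10000 UMIs, 118 of 11635 genes were higher and 28 lower. With at least 10 UMIs and no minimum share of cells, 180 of 14159 were higher and 64 lower. Day 7 had exceeded naïve neurons 2-fold or more in 203 genes (1.74%), of which 11 came back by at least 2-fold, 191 stayed within 2-fold of day 7 and 131 were still at least 2-fold over the naïve level at day 14. The ratio of day 7 over naïve and that of day 14 over day 7 share the 7-day library, so its error moves them in opposite directions. Of the 28 genes of neuronal injury and regeneration, 26 could be evaluated, 2 were higher, 2 were lower and the median log2 ratio was -0.21, beside 0.04 over all genes.

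The 2 injury genes that were lower were among those that had gone up most at day 7. Sprr1a, a small proline-rich protein that promotes axon outgrowth, had 7.17 CPM in naïve neurons, 620 at day 7 and 273 at day 14 (log2 ratio -1.18, -1.25 to -1.12). Gal, which encodes the neuropeptide galanin, had 43.5, 503 and 224 CPM (-1.16, -1.24 to -1.09). Both stayed far above the naïve level at day 14. Single cells weigh on both, with 21.2% of the Sprr1a and 31.0% of the Gal UMIs of day 7 in 1 cell, so neither is counted when genes with over 20% of UMIs in 1 cell are left out. In neurons with at least 10000 UMIs, which hold most of the neuron UMIs, Sprr1a had 614 and 273 CPM at day 7 and day 14 and Gal had 512 and 223. Under the stricter cell filter, the log2 ratio of Sprr1a was -0.35, under the fold. With each cell weighing the same that of Gal was -0.73, also under the fold.

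The 11 genes that came back from day 7 included Inhbb and Chac1. Inhbb, a subunit of activin and inhibin, had 0.470, 43.4 and 16.8 CPM (-1.32, -1.63 to -1.11). Chac1, a glutathione-degrading enzyme of the stress response, had 3.41, 27.1 and 11.4 CPM (-1.18, -1.58 to -0.93). The 11 genes also held haemoglobin genes, which are genes of red blood cells. Hbb-bs, a beta-globin, had 21.9, 45.6 and 16.3 CPM in all neuron-gated cells, but 21.7, 20.3 and 16.5 CPM in those with at least 10000 UMIs. The higher level of Hbb-bs at day 7 was not found in the deep cells.

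The core of the injury programme was present at both days. Atf3, the transcription factor that marks axotomised neurons, had 12.2, 164 and 106 CPM (-0.62, -0.74 to -0.51). Sox11, a transcription factor of axon growth, had 105, 488 and 353 CPM (-0.46, -0.53 to -0.40), and Jun had 64.1, 149 and 148 CPM (-0.01, -0.12 to 0.10). None of these 3 passed the fold between the days. Gadd45a, a stress-induced growth arrest gene, had 46.4, 156 and 98.2 CPM, and Flrt3, a membrane protein of neurite growth, had 41.1, 212 and 168 CPM. Gap43, the growth cone protein, had 281, 900 and 1215 CPM, also within the fold (0.43, 0.39 to 0.48).

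The 2 injury genes that were higher at day 14 were Nts and Ngfr. Nts encodes neurotensin and had 62.2, 45.5 and 291 CPM (2.65, 2.50 to 2.85), with 37.9% of the UMIs of day 14 in 1 cell. Ngfr, the low-affinity neurotrophin receptor, had 116, 96.8 and 202 CPM (1.06, 0.94 to 1.19). It was close to the naïve level at day 7 and above it at day 14.

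The 3 genes with the largest ratios by the naming rule were channels and a receptor of sensory neuron subsets. Htr3a, a serotonin-gated channel, had 15.99, 0.609 and 12.5 CPM, from 136, 4 and 158 UMIs (3.07; the interval, taken without the added CPM, ran from 2.97 to 6.25). Galr1, a galanin receptor, had 2.12, 0.456 and 7.11 CPM (2.48, 2.37 to 6.27), with 3 UMIs at day 7. Asic3, an acid-sensing channel, had 5.17, 1.83 and 14.5 CPM (2.46, 2.15 to 3.97). Htr3a and Asic3 were lower at day 7 than in the naïve library, and only 57 deep neurons stand behind the values of day 7. Fewer neurons of a subset and less RNA per neuron cannot be told apart here. Of the 103 higher genes, 22 were at least 2-fold lower at day 7 than in the naïve library, with no minimum share of naïve cells. Of all 11677 evaluated genes, 67 passed the fold downwards from the naïve library to day 7, which also needs a UMI in 10% of naïve cells. The counts of 22 and 67 are thus not on the same rule. Of the 67 genes, 16 rose by at least 2-fold from day 7 to day 14. The 7-day library enters both ratios here too, so its error alone can yield genes that seem to fall and recover.

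The list of 24 genes of sensory neuron identity had 23 evaluated members, of which 2 were higher, among them Asic3, none was lower, and the median was 0.08. Scn10a, a sodium channel of nociceptors, had 459, 442 and 398 CPM. Mrgprd, the receptor of non-peptidergic nociceptors, had 184, 188 and 109 CPM (-0.78, -0.89 to -0.67), and Th, which marks low-threshold C fibres, had 170, 72.6 and 87.0 CPM. Trpv1, the capsaicin receptor, had 120, 142 and 223 CPM (0.65, 0.55 to 0.76). None of these 4 passed the fold. The plot of neuronal genes shows the fall of Sprr1a and Gal beside the smaller differences of Sox11 and Gap43.

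**Figure D3:**
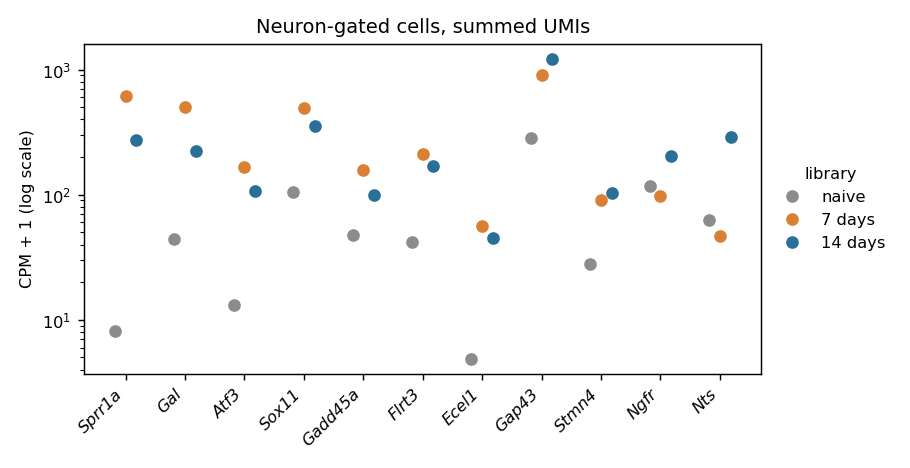
Level (CPM + 1, log scale) of 11 injury genes in the summed UMIs of neuron-gated cells, 1 point per library. Sprr1a and Gal lie between the naïve and the 7-day level at day 14, while Ngfr and Nts are highest at day 14.

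In immune cells, 7 genes of the interferon response were lower at day 14. Of 7024 genes evaluated, 39 were higher (0.555%) and 44 lower (0.626%) at day 14, or 30 higher and 59 lower with TMM scaling, which corrects for the composition of the sums. In macrophages alone, 45 of 6081 genes were higher (0.740%) and 44 lower (0.724%). In both, 7 of the 14 evaluated genes of the interferon response were lower and none was higher. Their median log2 ratio was -1.15 in immune cells and -1.33 in macrophages, beside 0.03 and 0.01 over all genes, and all 14 had a ratio under 0.

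The 3 interferon response genes that fell most in macrophages already had a lower CPM at day 7 than in the naïve library, for Ifit1 by little. No interval was taken for this step. In macrophages Isg15, a ubiquitin-like antiviral modifier, had 186 CPM in the naïve library, 67.1 at day 7 and 17.3 at day 14 (-1.90, -2.77 to -1.21). Ifit1, which binds foreign RNA caps, had 161, 136 and 34.6 CPM (-1.95, -2.53 to -1.45). Rtp4, an interferon-induced chaperone, had 229, 109 and 32.8 CPM (-1.71, -2.32 to -1.19). The other 4 that were lower at day 14 were Usp18, Ifi27l2a, Ifit2 and Ifit3, with log2 ratios from -1.41 to -1.32. Uxs1, Meg3 and Manea had the largest ratios upwards in immune cells, with log2 ratios of 1.69, 1.43 and 1.4 and 43 to 60 UMIs at day 14. Summed over the interferon list, macrophages had 4792, 2361 and 1219 CPM. The naïve value rests on 67 macrophages.

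In the other classes, the median ratio of interferon response genes was -0.29 in glia, 0.14 in Schwann cells, 0.09 in vascular cells, 0.35 in neurons and 0.96 in fibroblasts. In fibroblasts 3 genes of the list could be evaluated and 1 was higher, Gbp2, a guanylate-binding protein, with 34.3 and 77.3 CPM at day 7 and day 14 (1.15, 0.20 to 2.30). In glia, Schwann and vascular cells no gene of the list passed the fold. In neurons Irf7, Rsad2 and Ifit3 were higher at day 14, with 1.37 and 5.21 CPM of Irf7 at day 7 and day 14 (1.39, 0.92 to 3.12), and Ifi27l2a was lower. Whether the classes differ was not tested.

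Promoters of the interferon response genes are shown because these genes moved together in immune cells. The table of RefSeq promoters (GRCm38.p6, 250 bases before to 50 bases after the transcription start) held 4 of the 7 genes that were lower. The core letters of an interferon-stimulated response element, GAAA followed by any 2 bases and again GAAA, were searched on both strands with overlapping matches counted. Matches are in capitals, also where they lie on the opposite strand and read TTTC, 2 bases, TTTC. They were found in Isg15, Ifit1 and Ifit3 but not in the windows of Ifit2, and in 1079 of 27025 genes (3.99%) of the whole table.
Isg15 (chr4:156200769-156201068, minus strand): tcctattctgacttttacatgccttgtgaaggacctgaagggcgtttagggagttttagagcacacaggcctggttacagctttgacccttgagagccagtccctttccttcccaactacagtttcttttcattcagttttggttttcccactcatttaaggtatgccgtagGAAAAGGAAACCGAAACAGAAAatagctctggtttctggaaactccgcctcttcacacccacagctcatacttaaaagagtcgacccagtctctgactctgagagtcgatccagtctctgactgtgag
Ifit1 (chr19:34640639-34640938, plus strand): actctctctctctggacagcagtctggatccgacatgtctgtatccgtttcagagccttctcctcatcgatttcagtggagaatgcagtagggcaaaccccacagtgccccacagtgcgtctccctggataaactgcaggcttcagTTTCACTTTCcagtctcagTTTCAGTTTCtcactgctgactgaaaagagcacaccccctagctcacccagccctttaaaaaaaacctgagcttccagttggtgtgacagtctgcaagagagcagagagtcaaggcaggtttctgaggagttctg
Ifit3 (chr19:34583279-34583578, plus strand): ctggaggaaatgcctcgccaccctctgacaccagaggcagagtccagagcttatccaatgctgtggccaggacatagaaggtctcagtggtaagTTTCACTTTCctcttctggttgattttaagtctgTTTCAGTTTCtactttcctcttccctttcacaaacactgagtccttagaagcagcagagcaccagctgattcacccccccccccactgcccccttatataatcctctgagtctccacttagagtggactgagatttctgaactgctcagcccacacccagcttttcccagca
The Isg15 window held 3 overlapping matches, the first 78 bases before the start, and the windows of Ifit1 and Ifit3 held 2 each. A match of letters is a description and was not tested as a binding site.

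Ccl7, Ccl2 and Ccl12, which encode chemokines that attract monocytes, were also lower in macrophages. Ccl7 had 210, 178 and 34.6 CPM (-2.33, -2.91 to -1.86), Ccl2 had 167, 101 and 26.4 CPM (-1.90, -2.58 to -1.34), and Ccl12 had 1292, 867 and 371 CPM (-1.22, -1.40 to -1.06). Over all immune cells Ccl7 and Ccl12 were lower too, but Ccl2 was at a log2 ratio of 0.77, with 86.3% of its UMIs of day 14 in 1 cell. Ccl8, another chemokine, went up at day 7 and came back, with 136, 1492 and 458 CPM (-1.70, -1.85 to -1.56). Ccr1, a receptor of such chemokines, took the same course with 30.9, 163 and 56.5 CPM (-1.51, -1.97 to -1.10). In naïve macrophages 522 genes (8.58%) had stood at a level 2-fold or more below that of day 7, and of these 8 came back by at least 2-fold, and 385 were still at least 2-fold over the naïve level at day 14. Another 164 genes were 2-fold or more lower at day 7 than in naïve macrophages. Genes were evaluated by their UMIs in the injured libraries alone, which favours genes that rose. The counts of 522 and 385 also rest on a naïve sum of only 161720 UMIs, against 1087413 at day 7.

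Genes of the macrophage state that clears debris differed less. Of 23 evaluated genes of macrophage activation and clearance, 1 was higher, 3 were lower and the median was 0.13. The higher one was Lgals3 (galectin-3), with 92.8, 99.3 and 229 CPM (1.20, 0.88 to 1.55). The 3 lower ones were Ccl2, Ccl7 and Ccl12. Trem2, a lipid receptor, had 223, 410 and 367 CPM, and Cd68, a lysosomal protein, had 482, 338 and 371 CPM. The 7 MHC class II genes, which present antigen, had 43291 CPM in sum in the naïve library, 24165 at day 7 and 35684 at day 14. None of the 7 passed the fold, and their median was 0.53.

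Clock genes and a glucocorticoid target also differed in macrophages. Dbp had 12.4, 22.1 and 55.6 CPM (1.29, 0.63 to 2.08), Nr1d1 (Rev-erb alpha) had 14.7 and 46.4 CPM at day 7 and day 14 (1.59, 0.82 to 2.57), and Per3 had 43.2 and 91.1 CPM (1.06, 0.56 to 1.61). Nr1d1 and Per3 had 0 UMIs in the 67 naïve macrophages, which allows up to 18.6 CPM. Of the 8 evaluated clock genes 3 were higher, with a median of 0.73. Some other cells had higher clock genes too. In mural cells within the vascular class 2 of 9 were higher (median 0.78), and in fibroblasts 1 of 9 was (0.36). In endothelial cells 1 of 14 was higher (0.08). No clock gene passed the fold in neurons, glia or Schwann cells, with medians of 0.12, 0.06 and 0.03. Fkbp5, a chaperone induced by glucocorticoids, had 130, 59.8 and 9.11 CPM (-2.59, -3.84 to -1.74). The hour at which the mice were killed is not given in the labels, so the time of day and the day after injury cannot be told apart.

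**Figure D4:**
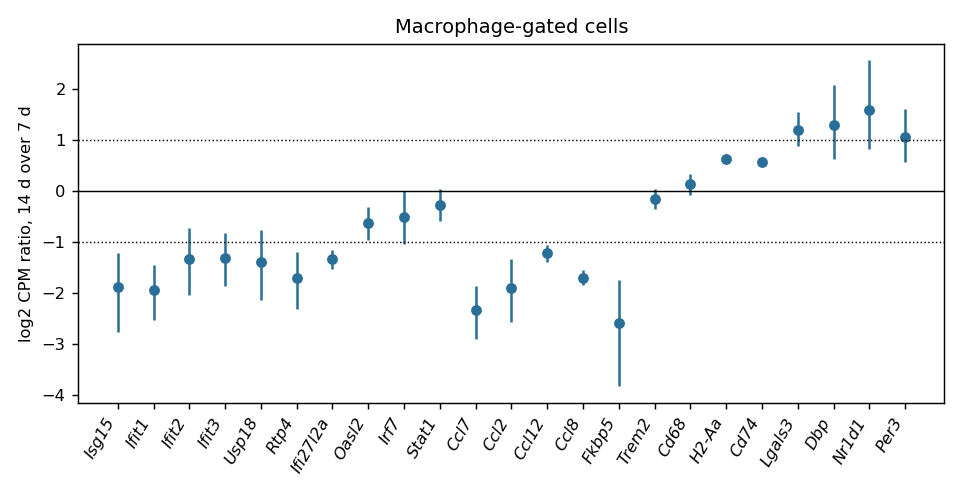
Log2 ratio of CPM, day 14 over day 7, in macrophage-gated cells. Points have 1 CPM added, lines are exact 95% intervals for counting error taken without it, and dotted lines mark 2-fold. The 7 interferon response genes from Isg15 to Ifi27l2a lie under -1, as do the chemokines and Fkbp5, while Lgals3 and the clock genes Dbp, Nr1d1 and Per3 lie above 1.

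In Schwann cells as a class, 0 of 10093 genes were higher and 1 was lower (0.00991%), the mitochondrial ribosome gene Mrps28 with 26.6, 27.4 and 12.6 CPM (-1.06, -1.55 to -0.71). No myelin gene passed the fold. The 12 evaluated myelin genes had a median of -0.07, and the 19 evaluated genes of cholesterol synthesis, which feeds myelin, had a median of -0.20 with none past the fold. In myelinating Schwann cells Mbp, myelin basic protein, had 12707, 12467 and 11562 CPM (-0.11, -0.13 to -0.09), and Egr2, the master regulator of myelination, had 227, 293 and 300 CPM (0.03, -0.07 to 0.14).

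Non-myelinating Schwann cells, 98 at day 7 and 169 at day 14, differed more, with 59 of 3148 genes higher (1.87%) and 17 lower (0.540%). Of the 18 repair Schwann cell genes 8 could be evaluated, 3 were higher, none was lower and the median was 1.16, beside 0.00 over all genes. Tnc (tenascin C), a matrix protein of injured nerve, had 32.3, 23.9 and 381 CPM (3.94, 2.85 to 5.46). Runx2, a transcription factor of the repair cell, had 29.4, 19.9 and 292 CPM (3.81, 2.62 to 5.51). Ngfr had 121, 112 and 404 CPM (1.85, 1.29 to 2.48). At day 7 these 3 genes had no more than their naïve level.

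Other genes were higher at day 14 as well. Igfbp5, a binding protein of insulin-like growth factors, had 32.3, 51.8 and 426 CPM (3.02, 2.24 to 3.97), Gldn (gliomedin) had 23.5, 19.9 and 161 CPM (2.95, 1.74 to 4.67), Gadd45a had 14.7, 27.9 and 157 CPM (2.46, 1.39 to 3.85) and Atf3 had 35.3, 51.8 and 165 CPM (1.65, 0.82 to 2.63). Nes, the intermediate filament nestin, had 11.8, 31.9 and 82.3 CPM (1.34, 0.27 to 2.66). Of these 5 genes all but Gldn had a higher CPM at day 7 than in the naïve library, but from few UMIs. Igfbp5, Gadd45a and Atf3 had 11, 5 and 12 UMIs in the naïve library and 13, 7 and 13 at day 7. No interval was taken for this step. The growth factor genes Btc and Gdnf had 63 and 31 UMIs at day 14, or 113 and 55.5 CPM, and 0 UMIs at day 7, which allows up to 12.0 CPM, but they were found in under 10% of the cells. Other members of the repair list did not pass the fold, with 320, 291 and 406 CPM of Jun (0.48, 0.10 to 0.88) and 276, 339 and 354 CPM of Sox2 (0.07, -0.31 to 0.45).

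A small number of cells carried this difference. Counting cells with a UMI of at least 4 of the 7 genes Tnc, Runx2, Ngfr, Igfbp5, Gldn, Gadd45a and Atf3, a set chosen after their levels were seen and thus given as a description, found 17 of 169 non-myelinating Schwann cells at day 14 (10.1%, 5.97 to 15.6%). It found 2 of 98 at day 7 (2.04%, 0.248 to 7.18%) and 1 of 172 in the naïve library. These 17 cells held 192 of the 213 Tnc UMIs and 151 of the 163 Runx2 UMIs of their class. They were deeper than the rest, with a median of 6983 against 2638.5 UMIs. With each cell thinned to 2000 UMIs and shallower cells left out, the count was 13 of 124 cells at day 14 (10.5%, 5.70 to 17.3%) and 1 of 61 at day 7 (1.64%, 0.0415 to 8.80%).

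The same signature was found in other cells. Among cells without a class it was present in 15 of 518 at day 14 and 1 of 311 at day 7. In satellite glia the order of the days was the opposite, with 6 of 431 cells at day 7 (1.39%, 0.513 to 3.01%) and 2 of 560 at day 14 (0.357%, 0.0433 to 1.28%), against 2 of 711 in the naïve library. In myelinating Schwann cells it was present in 1 of 1388 at day 14 (median depth of the others 3722 UMIs) and 0 of 983 at day 7 (interval up to 0.375%). Of the 38 such Schwann or ungated cells over all libraries, 34 lay in 1 cluster of 397 cells that the markers left without a name, so the result depends on how the class is drawn. With clusters in place of the gate, the log2 ratios were 1.43 for Tnc, 0.08 for Ngfr and 4.48 for Runx2, and those of Gldn, Gadd45a, Atf3 and Nes turned to -0.39, -0.37, -0.94 and -0.70.

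**Figure D5:**
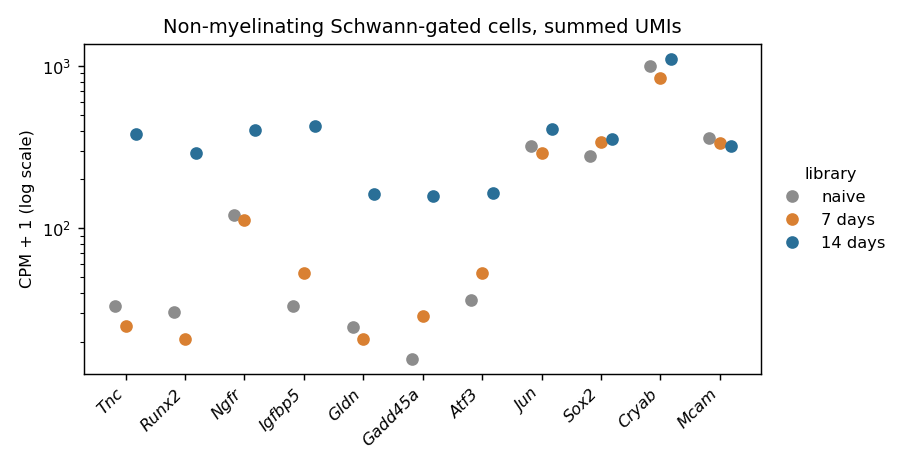
Level (CPM + 1, log scale) of 11 genes in the summed UMIs of non-myelinating Schwann-gated cells, 1 point per library. The first 7 genes, from Tnc to Atf3, are highest at day 14, while Jun, Sox2, Cryab and Mcam lie close together in the 3 libraries.

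In satellite glia 9 of 10085 genes were higher (0.0892%) and 2 lower (0.0198%). The higher ones included Cd74, H2-Aa and H2-Q7, genes of antigen presentation. Cd74, the invariant chain of MHC class II, had 2.78, 4.33 and 22.9 CPM (2.16, 1.66 to 3.23), H2-Aa had 3.37, 6.12 and 16.4 CPM (1.29, 0.75 to 2.14), and H2-Q7, a class I gene, had 5.75, 2.29 and 14.4 CPM (2.22, 1.64 to 3.83). The 4 evaluated MHC class II genes had a median of 1.14. Medians above 0 were also found in the other classes where the list could be evaluated, with 1.04 over 4 genes in vascular cells, 0.70 over 6 in Schwann cells, 0.64 over 5 in neurons and 0.39 over 7 in immune cells, though no gene of the list passed the fold there. In the endothelial cells within the vascular class 2 of 4 were counted as higher. They were H2-Eb1 with 8.33 and 22.4 CPM at day 7 and day 14 (1.32, 0.57 to 2.38) and H2-Ab1 with 6.54 and 17.4 CPM (1.29, 0.45 to 2.50). These levels are low beside the 14092 CPM of Cd74 in macrophages at day 14, and macrophages held 5.45% of all UMIs at day 7 and 3.40% at day 14. The part of free or adhering macrophage RNA in them was not tested. Under the stricter cell filter, which left 16 glia at day 14 and 873 genes to evaluate, none of the 11 genes past the fold in satellite glia passed.

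Genes of glial reactivity differed less. Of 16 evaluated genes of glial homeostasis and reactivity none passed the fold and the median was 0.00. Gfap, the intermediate filament of reactive glia, had 3.97, 7.65 and 12.1 CPM in satellite glia, from 20, 30 and 60 UMIs (0.60, 0.01 to 1.35). Gap43 had 4.16, 11.5 and 24.3 CPM (1.02, 0.58 to 1.61). The 2 lower genes were Kpna2, a nuclear import factor, with 10.1, 13.5 and 5.06 CPM (-1.26, -2.16 to -0.70), and Cyr61, a matrix signalling protein, with 29.9, 34.4 and 14.98 CPM (-1.15, -1.63 to -0.78).

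In vascular cells 11 of 9724 genes were higher (0.113%) and 8 were lower (0.0823%). The 2 lowest were glucocorticoid-induced genes. Zbtb16, a zinc finger transcription factor, had 68.6, 83.2 and 22.0 CPM (-1.87, -2.32 to -1.53), and Fkbp5 had 49.5, 53.7 and 19.5 CPM (-1.42, -1.91 to -1.02). Fkbp5 was thus lower at day 14 in vascular cells and in macrophages. In myelinating Schwann cells it had 22.4, 23.5 and 8.66 CPM (-1.34, -1.96 to -0.94). It was not counted there, as 9.36% of the cells at day 7 had a UMI of it, under the 10% needed. Among the higher genes were Smad6, an inhibitor of BMP signalling, with 17.4, 10.5 and 30.9 CPM (1.48, 0.91 to 2.28), and Ptgs1 (cyclooxygenase 1) with 40.4, 10.0 and 29.5 CPM (1.47, 0.89 to 2.29). Schip1, a cytoskeletal adaptor, had 14.8, 8.64 and 23.7 CPM (1.36, 0.72 to 2.25). Of 15 evaluated genes of endothelial activation and barrier none passed the fold, with a median of 0.04. Hbb-bs had 33.7 CPM at day 7 and 515 at day 14, but 94.5% of the UMIs of day 14 lay in 1 cell.

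In fibroblasts 90 of 4228 genes were higher (2.13%) and 23 lower (0.544%), from only 70 cells at day 7, and for 104 of the 113 the interval lay beyond 0. Egr3, an immediate early transcription factor, had 57.9, 6.86 and 57.4 CPM (2.89, 1.14 to 6.15), with 2 UMIs at day 7, and Thbs4, a matrix protein, had 188, 24.0 and 118 CPM (2.25, 1.21 to 3.65). Both were lower at day 7 than in the naïve library, and 35 of the 90 higher genes were so by at least 2-fold, with no minimum share of naïve cells. Of all 4228 evaluated genes, 119 passed the fold downwards from the naïve library to day 7, which also needs a UMI in 10% of naïve cells. The 2 counts are thus not on the same rule. Of the 119 genes, 35 rose by at least 2-fold from day 7 to day 14. The 90 genes were picked for a low level at day 7 beside day 14, and the 7-day library enters both ratios. Its counting error alone can thus yield genes that seem to fall and recover, and its part was not tested. Mfap3l, a microfibril-associated protein, had 18.1, 10.3 and 56.2 CPM (2.34, 0.82 to 4.78). The 3 lowest were Pank2, Usp53 and St3gal6, with log2 ratios from -1.41 to -1.19. C3, the central complement component, was higher at each step with 47.0, 137 and 343 CPM (1.32, 0.84 to 1.84). Of 15 evaluated genes of the extracellular matrix 1 was higher, Postn (periostin) with 18.1, 17.1 and 56.2 CPM (1.66, 0.39 to 3.40) and 37.5% of its UMIs of day 14 in 1 cell, and the median was 0.05. The collagen gene Col3a1 had 4309, 5976 and 5199 CPM.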

How the data were processed

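Single cells of dissociated L3 and L4 DRGs were profiled with 10x Genomics v3 chemistry in 1 library each of naïve mice and of mice at day 7 and day 14 after SNI. The authors deposited raw UMI counts per gene and barcode without normalization, made with Cell Ranger 3.0.2 on build mm10 per the submitters' processing notes. The annotation, the hour of tissue collection and any downsampling between libraries are not given in the sources used here. The paper's text gives no methods for these cells.

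Barcodes passed with 500 or more genes and no more than 20% mitochondrial UMIs. A cell took the class with the highest mean scaled marker level (75 markers, 11 subclasses) where that level was at least 0.5 and led every other class by at least 0.5. The class names rest on these markers alone and were not set against the authors' own annotation. The markers were left out of all gene results. Doublets called by Scrublet (scanpy 1.11.5, expected rate 5%) were 61 of 6510 injured cells (0.937%), and were kept in the values given and left out as an alternative. UMIs were summed per class and library and scaled to CPM. Log2 ratios have 1 CPM added, and their exact conditional binomial intervals (scipy 1.17.1) are those of the ratio without it. Shares have Clopper-Pearson intervals.

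The named genes were the 3 highest and 3 lowest per class past the fold, 5 each over all cells, without marker genes, gene models named Gm with a number or Rik, and genes with over 20% of UMIs in 1 cell of the library where they were higher. Genes of the 16 fixed lists could be named whatever they did. Inhbb, Chac1, Ccl8, Ccr1 and C3 were chosen after their values were seen. The cells, classes and lists were chosen with earlier results of these data known. The alternatives were other cell filters, gates, clusters (leidenalg 0.10.2, resolution 1), thinning to 1500 UMIs, equal weight of cells, TMM scaling, 5 CPM added and a lower filter. Promoters came from RefSeq. Some genes of the fixed lists are not reported here.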

Additional observations from a re-analysis of the deposited data

How the results depend on the processing

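Of the recomputed shares and counts of genes, 84 were close to the value given, 21 moved and 2 reversed. Both reversals were the log2 ratio of the neuron share, which was 0.51 under a stricter cell filter (1000 or more genes, no more than 10% mitochondrial UMIs) and 0.54 with neurons of at least 10000 UMIs only; it was -0.44 with cells thinned to 1500 UMIs. Under that filter, which left 16 glia at day 14, the ratio was -0.50 for glia and -0.19 for Schwann cells. The stricter cell filter gave 16 genes past 2-fold over all cells, 151 in glia, 6 in Schwann cells, 40 in vascular cells and 39 in fibroblasts. It left 873 of 10085 glia genes and 2030 of 4228 fibroblast genes to evaluate, and of the genes counted before it shared 2 of 3 over all cells, 0 of 11 in glia, 0 of 1 in Schwann cells, 14 of 19 in vascular cells and 10 of 113 in fibroblasts. With at least 10 UMIs and no minimum share of cells, the counts were 137 over all cells, 244 in neurons, 181 in glia, 157 in Schwann cells, 303 in vascular cells, 1142 in fibroblasts and 760 in immune cells. With 5 CPM added they were 40 in neurons, 4 in glia, 0 in Schwann cells and 7 in vascular cells. With each cell weighing the same they were 1729 in neurons (1143 higher and 586 lower) and 66 in vascular cells, and over all cells they were 4, with none of the 3 genes counted before. With clusters in place of the gate, the ratios in non-myelinating Schwann cells were -0.39 for Gldn, -0.37 for Gadd45a, -0.94 for Atf3 and -0.70 for Nes, and the median of the repair list was 0.03. The cause of these moves was not tested.

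No paired analysis was possible because a time point is represented by a single library. The limits to genes with a counting interval beyond 0 or with no cell over 20% of UMIs, the share of neurons of at least 10000 UMIs and shares among gated cells were added as alternatives after seeing the data. Depth limits fibroblasts and non-myelinating Schwann cells most, with 291644 and 251049 UMIs at day 7.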
